A study of Mus musculus with 6 samples.

Results

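Branched-chain amino acid catabolism was followed through 5 genes in mouse adipose-derived stem cells (ADSCs) cultured for adipocyte differentiation. The genes were *Aldh6a1*, *Dbt*, *Mccc2*, *Mmut* (listed in older annotations as *Mut*), and *Auh*. They were chosen by name, with earlier results of these data known, among the 4864 genes of the table. Of them 4 were matched by the deposited gene name and 1, *Mmut*, by its Ensembl identifier. ADSCs are the precursors of adipocytes. Those used here were isolated from subcutaneous adipose tissue of wild-type male C57BL/6J mice and were cultured in an adipogenic medium of dexamethasone, insulin, isobutylmethylxanthine, indomethacin, and triiodothyronine. All 6 cultures received this medium. The 3 NJT-2 cultures are labelled as differentiated with NJT-2 (saikosaponin A, a plant terpenoid studied as an agonist of the nuclear receptor PPARγ), and the 3 vehicle cultures, labelled Control, without it. In this cell model NJT-2 was used at 200 nM and mature adipocytes were taken on day 8, and the dose and the timing of NJT-2 in the sequenced cultures are not stated separately. The number of animals and the pooling of their cells are not stated either. P-values therefore measure the spread between these 6 libraries, which may be partly technical.

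Leucine, isoleucine, and valine are the branched-chain amino acids. After they lose their amino group, the resulting keto acids are oxidized inside mitochondria by the branched-chain keto acid dehydrogenase complex, the committed step of the pathway. The 3 carbon skeletons then take separate routes. Leucine ends in acetyl-CoA and acetoacetate, valine in propionyl-CoA, and isoleucine in both acetyl-CoA and propionyl-CoA, and propionyl-CoA enters the citrate cycle as succinyl-CoA. Mature fat cells are known for an active form of this pathway, which supplies carbon for oxidation and for fatty acid synthesis.

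Each of the 5 genes has a defined place in it. *Dbt* (ENSMUSG00000000340, chromosome 3, 116513070 to 116549981, plus strand) encodes the transacylase core of the dehydrogenase complex. *Mccc2* (ENSMUSG00000021646, chromosome 13, 99948530 to 100015618, minus strand) encodes a subunit of methylcrotonyl-CoA carboxylase on the leucine route. *Auh* (ENSMUSG00000021460, chromosome 13, 52835119 to 52929681, minus strand) encodes the methylglutaconyl-CoA hydratase of the next leucine step, a protein that also binds AU-rich RNA. *Aldh6a1* (ENSMUSG00000021238, chromosome 12, 84430717 to 84451004, minus strand) encodes methylmalonate semialdehyde dehydrogenase, the last enzyme of the valine route before propionyl-CoA. *Mmut* (ENSMUSG00000023921, chromosome 17, 40934685 to 40961988, plus strand) encodes methylmalonyl-CoA mutase, the cobalamin-dependent enzyme that forms succinyl-CoA. All coordinates are those of the whole gene on GRCm38, as deposited.

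The promoter sequences are shown for *Aldh6a1*, *Mccc2*, and *Auh*, the 3 of the 5 genes with an entry in the promoter table used here. The windows are RefSeq sequences of GRCm38.p6, 250 bases before to 50 bases after an annotated start, all on the minus strand and written 5′ to 3′. The *Aldh6a1* window is chr12:84450975-84451274, the *Mccc2* window is chr13:100015590-100015889, and the *Auh* window is chr13:52929628-52929927. Capitals mark matches, on either strand, to CCAAT (the box bound by NF-Y), GGGCGG (the SP type of GC box), CCGGAAG (the ETS type of site), or CACGTG (an E-box).

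Aldh6a1: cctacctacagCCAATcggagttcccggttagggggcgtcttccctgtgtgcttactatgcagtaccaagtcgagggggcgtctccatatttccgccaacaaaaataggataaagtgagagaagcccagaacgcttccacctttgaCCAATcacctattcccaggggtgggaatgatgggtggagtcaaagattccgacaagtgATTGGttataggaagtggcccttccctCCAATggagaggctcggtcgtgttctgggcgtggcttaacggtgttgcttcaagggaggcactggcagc
Mccc2: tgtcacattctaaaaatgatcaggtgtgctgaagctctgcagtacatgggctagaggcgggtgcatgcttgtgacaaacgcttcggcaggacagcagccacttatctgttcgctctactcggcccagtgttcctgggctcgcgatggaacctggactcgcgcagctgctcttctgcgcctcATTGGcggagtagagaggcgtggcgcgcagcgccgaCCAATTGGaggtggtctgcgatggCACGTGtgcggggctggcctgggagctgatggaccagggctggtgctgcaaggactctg
Auh: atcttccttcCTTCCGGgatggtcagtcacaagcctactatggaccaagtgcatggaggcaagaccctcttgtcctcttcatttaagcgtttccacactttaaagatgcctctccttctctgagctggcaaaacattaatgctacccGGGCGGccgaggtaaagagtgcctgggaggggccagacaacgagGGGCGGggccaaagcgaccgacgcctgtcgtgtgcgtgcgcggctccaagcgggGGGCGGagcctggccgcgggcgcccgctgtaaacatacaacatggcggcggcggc

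The *Aldh6a1* window held 4 matches to CCAAT, a number reached by 1.06% of the 32851 promoter windows. The *Mccc2* window held 3 matches to CCAAT, a number reached by 3.37% of windows, and 2 of these share bases. It also held 1 match to CACGTG, which 7.15% of windows hold. The *Auh* window held no CCAAT, 3 matches to GGGCGG (10.7% of windows hold as many), and 1 to CCGGAAG (8.86% of windows). None of the 3 windows held AGGTCA, the core of many nuclear receptor sites, which 16.3% of windows hold, nor TCAAGGTCA, the ERR type of site that contains it (0.423% of windows). The PPRE direct repeat of that core and the NRF1 palindrome, held by 0.0396% and 0.971% of windows, had no match either. A second annotated *Aldh6a1* start, with its window at chr12:84448268-84448567 and not shown, held 1 match to AGGTCA and 2 to CCAAT.

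Counts on the analysed genes summed to between 16093037 and 28929673 per library, and libraries within a group did not lie equally close. Measured as the Euclidean distance of log2 CPM (counts scaled to library size) over the 3705 tested genes, vehicle replicate 1 lay 76.3 and 103.5 from the other vehicle libraries, which were 39.3 apart. NJT-2 replicate 2 lay 76.5 and 73.3 from the other NJT-2 libraries, which were 19.1 apart. The fold changes of the 5 genes are therefore also given without these 2 libraries, an alternative chosen after seeing the data. Of 16 adipocyte marker genes, 10 were in the table. Their summed FPKM (the count divided by gene length and by library total) was 82.5 to 105.5 with vehicle and 489 in NJT-2 replicate 2, against 1720 and 1377 in NJT-2 replicates 1 and 3. *Adipoq*, the gene of the fat cell hormone adiponectin, was at 0.38, 0.5, and 0.39 FPKM in the vehicle libraries and at 64.63, 22.04, and 58.45 with NJT-2. The labels of all 6 cultures give the cell type as mesenchymal stem cell. With *Adipoq* this low, the vehicle cultures are named here by treatment and not as adipocytes. Summed macrophage markers (4 of 12 in the table) ran from 9.67 to 12.74 with vehicle and from 31.37 to 58.74 with NJT-2, and none of the 4 was at 0 in all libraries. *Adgre1* and *Cd68* were higher without overlap. *Csf1r* overlapped, at 3.69, 3.58, and 2.52 FPKM against 4.12, 4.56, and 3.05 with NJT-2 (log2 fold change 0.025, adjusted p = 0.974 in edgeR). *Fcgr1* overlapped at low values, 0, 0.04, and 0.2 against 1.9, 0.17, and 1.06. Preadipocyte and fibroblast markers (4 of 10 in the table) summed to 197 to 793 with vehicle and 397 to 446 with NJT-2, most of it *Col1a1*. All 4 had a log2 fold change under 0, with a median of -0.88. *Pi16*, a marker of adipose progenitors, was called lower, with 22.33, 19.4, and 12.5 FPKM with vehicle and 1.73, 0.98, and 1.95 with NJT-2 (log2 fold change -3.83, adjusted p = 0.027 in edgeR). *Pdgfrb* was lower without overlap, at 56.74, 70.15, and 88.46 against 35.56, 19.47, and 40.98 (log2 fold change -1.35, adjusted p = 0.151 in edgeR). Endothelial markers (2 of 6) ran from 0.4 to 2.11 with vehicle and from 1.3 to 2.42 with NJT-2. The part of these cell types in the results was not tested, and in bulk RNA a different share of cells and a different amount of RNA per cell cannot be told apart.

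All 5 genes were higher in NJT-2 replicates 1 and 3 than in every vehicle library, a pattern that 29.2% of the tested genes shared. The difference between the group means was widest for *Aldh6a1*, intermediate for *Dbt* and *Mmut*, and smallest for *Mccc2* and *Auh*. By FPKM, NJT-2 replicate 2 was the lowest NJT-2 library for each of the 5, as it was for 58.1% of tested genes. Vehicle replicate 1 was the lowest vehicle library for each by FPKM, as for 66.2%. In normalized log2 CPM, the scale of the fold changes, this did not hold for *Dbt* and *Auh*. There vehicle replicate 2 was lowest for *Dbt* (-0.415 from the vehicle mean, replicate 1 at -0.076). Vehicle replicate 3 was lowest for *Auh* (-0.184, replicate 1 at -0.024). *Aldh6a1* alone of the 5 stayed above all vehicle libraries in NJT-2 replicate 2. Differences were tested with edgeR's quasi-likelihood test on the counts of the 3705 genes whose mean FPKM reached 0.5, all 5 genes among them. The fitted log2 fold change was above 0 for 4 of the 5 and for 50.8% of tested genes. A call needed a log2 fold change above 1 in size and a Benjamini-Hochberg adjusted p under 0.05. None of the 5 was called, where 0.567% of tested genes were called higher and 0.135% lower. At an unadjusted p under 0.05, *Aldh6a1* and *Dbt* were higher and no member was lower, against shares of 8.04% and 9.72% over all tested genes. DESeq2 on the same counts called 1 of the 5, *Aldh6a1*, where it called 4.48% of the 3638 genes with an adjusted p higher. Without vehicle replicate 1 and NJT-2 replicate 2, edgeR called 3 of the 5, *Aldh6a1*, *Dbt*, and *Mmut*, where it called 6.88% of tested genes higher. At an unadjusted p under 0.05 that fit had 4 of the 5 higher, with *Mccc2* as the addition, against 15.5% of tested genes. That fit leaves out the NJT-2 library in which each of the 5 was lowest. The 5 genes were chosen with earlier results known and that fit after seeing the data. These counts therefore describe the 5 genes and are no test of them as a set.

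**Figure D1:**
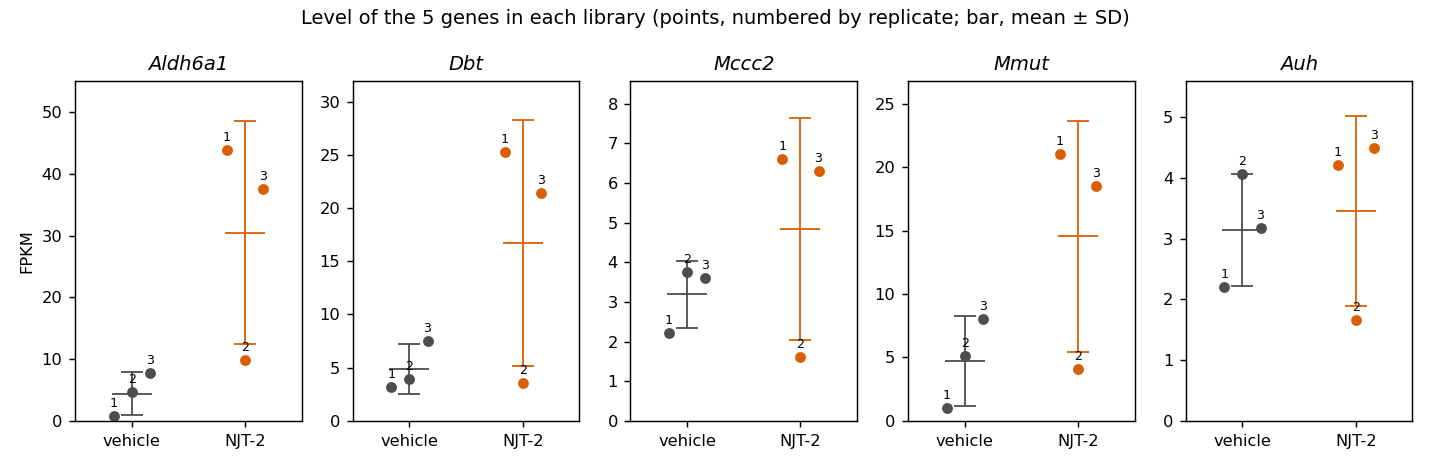
FPKM of the 5 genes (vertical axes, each from 0) in the vehicle and NJT-2 libraries, with replicate numbers at the points and the mean ± SD as bars. NJT-2 replicates 1 and 3 lie above all vehicle libraries in every panel, and NJT-2 replicate 2 does so for *Aldh6a1* only, at 9.93 against a highest vehicle value of 7.77.

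*Aldh6a1*, at the end of the valine route, had an FPKM of 0.76, 4.73, and 7.77 in vehicle replicates 1, 2, and 3 and of 43.91, 9.93, and 37.61 in NJT-2 replicates 1, 2, and 3. Behind these values stand 256, 2439, and 3211 reads (vehicle) and 18022, 4029, and 15204 reads (NJT-2). The groups did not overlap, as for 14.4% of the tested genes in this direction, but both spread widely, with vehicle replicate 1 far below the other vehicle libraries. The group means ± SD were 4.42 ± 3.52 (vehicle, n = 3) and 30.5 ± 18.1 (NJT-2, n = 3). The log2 fold change was 2.75 (standard error, SE, 0.77, adjusted p = 0.164 in edgeR), and 1.62% of tested genes had a larger one. It stayed between 2.24 and 3.31 when each library was left out in turn, always with an unadjusted p under 0.05 and with adjusted p from 0.101 to 0.42. Without vehicle replicate 1 and NJT-2 replicate 2 it was 2.71, with an adjusted p of 0.00438, and the gene was called. Of the 5 genes, *Aldh6a1* moved most in its place among the tested genes, from above 40.1% of them by mean FPKM with vehicle to above 85.8% with NJT-2. Exons of the opposite-strand gene *Bbof1*, not analysed here, cover 1078 of the 5784 exonic bases of *Aldh6a1*, and whether the counting used strand is not stated.

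*Mmut*, which acts downstream of *Aldh6a1* in the same propionyl-CoA disposal, had an FPKM of 1.03, 5.12, and 8.04 in the vehicle libraries and of 21.05, 4.11, and 18.49 in the NJT-2 libraries. Vehicle replicate 1 was again the lowest, and NJT-2 replicate 2 fell between vehicle replicates 1 and 2, so the groups overlapped. The group means ± SD were 4.73 ± 3.52 (vehicle, n = 3) and 14.6 ± 9.13 (NJT-2, n = 3), a log2 fold change of 1.57 (SE 0.72, adjusted p = 0.292 in edgeR). Left out in turn, the libraries gave log2 fold changes from 1.10 without vehicle replicate 1 to 2.06 without vehicle replicate 3. Without vehicle replicate 1 and NJT-2 replicate 2 the log2 fold change was 1.59 and the adjusted p 0.0144. *Mmut* shares 95 exonic bases with the opposite-strand gene *Cenpq*, whose FPKM ran from 0.63 to 4.44 with vehicle and from 2.55 to 2.97 with NJT-2.

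*Dbt*, the core of the keto acid dehydrogenase, had an FPKM of 3.17, 3.92, and 7.52 in the vehicle libraries and of 25.22, 3.52, and 21.37 in the NJT-2 libraries. By FPKM, NJT-2 replicate 2 fell within the vehicle range, at 0.151 of the mean of the other NJT-2 libraries, the lowest such ratio of the 5 genes. In normalized log2 CPM it lay just below that range, at -0.455 from the vehicle mean. The lowest vehicle library, replicate 2, was at -0.415 on that scale. The group means ± SD were 4.87 ± 2.33 (vehicle, n = 3) and 16.7 ± 11.6 (NJT-2, n = 3). The log2 fold change was 1.62 (SE 0.66, adjusted p = 0.269 in edgeR). The unadjusted p of *Dbt* rested on single libraries. It was above 0.05 without vehicle replicate 1, vehicle replicate 2, NJT-2 replicate 1, or NJT-2 replicate 3. The log2 fold change stayed between 1.19 and 2.09 in the fits without 1 library. Without NJT-2 replicate 2 it came to 2.09 (adjusted p = 0.0533 in edgeR), and without that library and vehicle replicate 1 it was 2.03 with an adjusted p of 0.0144.

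The leucine genes had the smallest differences, and both overlapped between the groups. *Mccc2* had an FPKM of 2.22, 3.75, and 3.6 with vehicle and of 6.59, 1.62, and 6.31 with NJT-2. NJT-2 replicate 2 was the lowest of all 6 libraries and NJT-2 replicates 1 and 3 the highest, so the NJT-2 values enclosed the vehicle values. The group means ± SD were 3.19 ± 0.843 (vehicle, n = 3) and 4.84 ± 2.79 (NJT-2, n = 3), with a log2 fold change of 0.43 (SE 0.53, adjusted p = 0.648 in edgeR). Without NJT-2 replicate 2 it was 0.83 (adjusted p = 0.17 in edgeR). Without vehicle replicate 1 as well it was 0.81 with an adjusted p of 0.0454, under the limit of 1 on the log2 scale.

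*Auh* had an FPKM of 2.21, 4.06, and 3.17 with vehicle and of 4.21, 1.66, and 4.49 with NJT-2. Its NJT-2 replicates 1 and 3 lay just above vehicle replicate 2, and NJT-2 replicate 2 below every vehicle library. The group means ± SD were 3.15 ± 0.925 (vehicle, n = 3) and 3.45 ± 1.56 (NJT-2, n = 3), and the difference was within the spread between replicates (log2 fold change -0.032, SE 0.40, adjusted p = 0.966 in edgeR). The fitted value had the opposite sign to the difference of the FPKM means, and its sign was not stable. It was positive in 7 of 19 alternative fits, with 0.28 without NJT-2 replicate 2 as the highest and -0.45 with each library's trend with gene length removed as the lowest. The FPKM of *Auh* was computed by the authors over 9592 bases, close to the 9580 bases covered by any exon of its 14 GENCODE M21 transcripts, while the longest of these has 3235 bases. Its level is thus set low against genes with few transcripts. Its fold change does not use this length, except in the fit with the length trend removed, which took the 9592 bases.

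**Figure D2:**
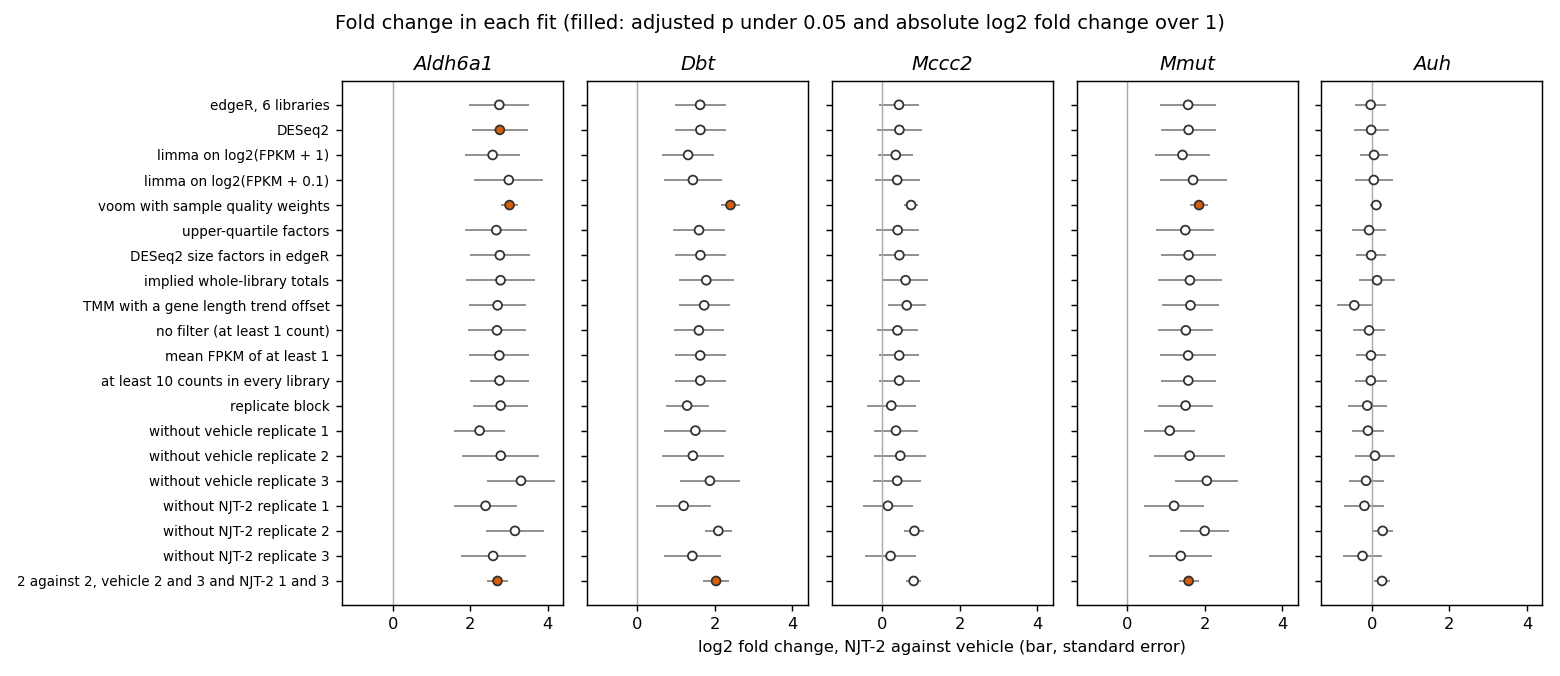
Log2 fold change of each gene, NJT-2 against vehicle (horizontal axes, bars are standard errors), in the main edgeR fit and 19 alternatives (rows). *Aldh6a1* lies between 2.24 and 3.31 and *Auh* between -0.45 and 0.28, and filled points, the called ones, occur for *Aldh6a1*, *Dbt*, and *Mmut* only.

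Ranked by mean FPKM, the order with vehicle was *Dbt* (4.87), *Mmut* (4.73), *Aldh6a1* (4.42), *Mccc2* (3.19), and *Auh* (3.15), and neighbors in it differed by less than the larger of their SDs. With NJT-2 the order was *Aldh6a1* (30.5), *Dbt* (16.7), *Mmut* (14.6), *Mccc2* (4.84), and *Auh* (3.45), and the same held for all neighbors except *Mmut* and *Mccc2*, whose means differed by more than either SD. By FPKM *Aldh6a1* was the highest of the 5 within each NJT-2 library, including replicate 2, and the lowest within vehicle replicate 1. These orders depend on the gene length in the FPKM, 5785 bases for *Aldh6a1* (longest transcript 3471) and 9592 for *Auh* (longest transcript 3235). They are therefore not orders of transcript number.

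Ratios between genes of the same library do not depend on how libraries are scaled. The FPKM ratio of *Aldh6a1* to *Auh* was 0.344, 1.17, and 2.45 with vehicle (replicates 1, 2, and 3) against 10.4, 5.98, and 8.38 with NJT-2, and the groups did not overlap. The ratio of *Aldh6a1* to *Mmut* was steadier within groups, with 0.738, 0.924, and 0.966 (vehicle) against 2.09, 2.42, and 2.03 (NJT-2). By FPKM the valine enzyme and the mutase that follows it were thus near parity in the vehicle libraries, and *Aldh6a1* was above *Mmut* in each NJT-2 library. The FPKM divides *Aldh6a1* by 5785 bases (longest transcript 3471) and *Mmut* by 3786 (longest transcript 3674). The size of this ratio depends on these lengths as divisors, and its change between the groups does not. Ratios do not remove a trend of counts with gene length that differs between libraries. Over the tested genes, the Spearman correlation of gene length with deviation from the gene's mean log2 CPM was -0.388, -0.401, and 0.347 with vehicle. With NJT-2 it was 0.184, 0.284, and 0.25 (replicates 1, 2, and 3 in each group). The part of this trend in the ratios was not tested. Of the 10 pairs among the 5 genes, 6 had ratios without overlap, where 29.9% of all pairs of tested genes did. The 6 were the 4 pairs with *Aldh6a1*, *Dbt* to *Mccc2*, and *Mccc2* to *Mmut*, and the last of these was lower with NJT-2. For each of the 6 the two-sided exact permutation p was 0.1, the smallest that 3 libraries against 3 allow. The value adjusted over the 10 pairs was 0.167. Any ratio without overlap gives this p of 0.1, so it only restates the lack of overlap. Pairs that share a gene are not independent. *Dbt* to *Mmut* overlapped, with 3.08, 0.766, and 0.935 (vehicle) against 1.20, 0.856, and 1.16 (NJT-2) (exact permutation p = 0.9). *Mccc2* to *Auh*, the consecutive leucine enzymes, stayed between 0.924 and 1.57 in all 6 libraries (exact permutation p = 0.3).

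**Figure D3:**
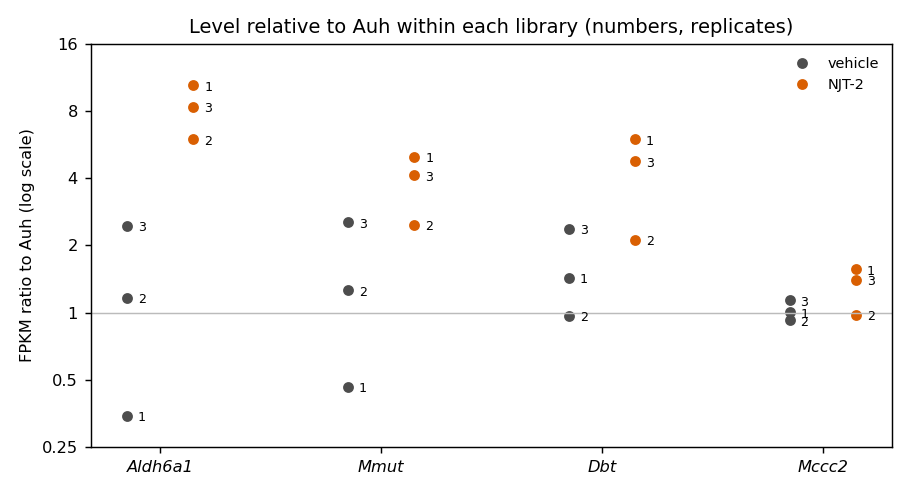
FPKM of *Aldh6a1*, *Mmut*, *Dbt*, and *Mccc2* divided by that of *Auh* in the same library (vertical axis, log scale), with replicate numbers at the points. The *Aldh6a1* ratio is at most 2.45 in vehicle libraries and at least 5.98 in NJT-2 libraries, while the other 3 ratios overlap between the groups.

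Set against every other tested gene in turn, the ratio with *Aldh6a1* was higher in all NJT-2 libraries than in all vehicle libraries for 71.0% of 3704 genes. The median tested gene had this for 7.83%. The share was 15.3% for *Mmut*, 10.6% for *Dbt*, 7.53% for *Auh*, and 7.13% for *Mccc2*, so the last 2 lay near the median gene. *Aldh6a1* stood at place 94 of the 3705 genes by this measure.

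Across the 6 libraries the 5 genes fell along a range of patterns. The Pearson r of log2 CPM was 0.956 between *Aldh6a1* and *Mmut* and 0.922 between *Mccc2* and *Auh*, and it was 0.201 between *Aldh6a1* and *Auh* (n = 6 libraries, given as a description). These values share the same libraries and their depths, and a single library can set them. *Dbt* lay between, with 0.851 to *Mmut* and 0.857 to *Mccc2*. The genes outside the 5 with the highest r were *Bcl2l13* (0.999) and *Pex3* (0.999) for *Aldh6a1*, *Tdrd3* (0.995) and *Atl3* (0.994) for *Mmut*, and *Cdkl3* (0.989) and *Letm1* (0.986) for *Dbt*. They were *Emc2* (0.993) and *Prkaca* (0.993) for *Mccc2* and *Cutc* (0.992) and *Prpsap2* (0.986) for *Auh*. With 6 libraries such values are common, and 116 of 3700 genes had an r over 0.95 with *Aldh6a1* and 21 with *Auh*.

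In NJT-2 replicate 2 each of the 5 genes was at less than 0.5 times the mean of NJT-2 replicates 1 and 3, as were 19.4% of the tested genes. The ratio ran from 0.151 for *Dbt* to 0.382 for *Auh*, with 0.208 for *Mmut*, 0.244 for *Aldh6a1*, and 0.251 for *Mccc2*. Against the vehicle mean, the same library was at 2.25 for *Aldh6a1*, 0.869 for *Mmut*, 0.723 for *Dbt*, 0.528 for *Auh*, and 0.508 for *Mccc2*. Its 5 values were thus spread on both sides of the vehicle mean. The summed adipocyte markers of this library stood above every vehicle library, as given above. Of 10 genes of mitochondrial proteins (of 16 listed), 5 lay above every vehicle library in it, 3 inside the vehicle range, and 2, *Ogdh* and *Uqcrc1*, below it. Their summed FPKM was 334 to 493 with vehicle and 1255, 644, and 1110 in NJT-2 replicates 1, 2, and 3. *Vdac1* made up 197.56 of the 644. The share of all tested genes above, inside, or below the vehicle range in this library was not computed. The 5, 3, and 2 are therefore not read as a result.

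KEGG annotates 15 genes of the table to valine, leucine, and isoleucine degradation, the 5 genes and 10 more, of which 9 were tested. Of these 9, 6 were higher and 3 lower, with a median log2 fold change of 0.34 beside 0.02 over all tested genes. None was called, and 2 passed an unadjusted p under 0.05, both higher, *Dld* and *Ehhadh*, against 8.04% of all tested genes. *Dld*, the dihydrolipoamide dehydrogenase that serves the branched-chain complex and its relatives, had an FPKM of 8.02, 22.41, and 23.29 with vehicle and of 84.47, 36.11, and 73.78 with NJT-2. Its groups did not overlap, unlike those of its partner *Dbt* (log2 fold change 1.76, SE 0.42, adjusted p = 0.132 in edgeR). *Ehhadh*, a peroxisomal enzyme of fatty acid oxidation, had a log2 fold change of 1.91 (SE 0.75, adjusted p = 0.258 in edgeR).

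Of the other KEGG genes, none passed an unadjusted p under 0.05. *Echs1*, the short-chain enoyl-CoA hydratase, had an FPKM of 4.77, 8.28, and 6.05 with vehicle and of 22.29, 5.68, and 18.7 with NJT-2 (log2 fold change 1.11, adjusted p = 0.287 in edgeR). By FPKM its NJT-2 replicate 2 fell inside the vehicle range, as did that of *Dbt*. *Oxct1*, which activates ketone bodies, had a log2 fold change of 0.48 (adjusted p = 0.506), *Aldh3a2*, a fatty aldehyde dehydrogenase, of 0.34 (adjusted p = 0.707), and *Acsf3* of 0.10 (adjusted p = 0.922) in the same test. *Hsd17b10*, the dehydrogenase of the isoleucine route, averaged 29.6 ± 11.1 FPKM (vehicle) and 30.1 ± 13.7 FPKM (NJT-2; SD, n = 3), and the fitted log2 fold change, -0.29, had the opposite sign to the difference of these means (adjusted p = 0.775 in edgeR). The thiolases *Acat2* and *Acaa1b* had log2 fold changes of -0.40 and -0.84 (adjusted p = 0.561 and 0.642 in edgeR). *Hmgcll1* was under the expression filter, with at most 44 counts in a library.

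Counts of genes listed around the pathway were made in the same fit. The lists name 102 genes besides the 5, of which 39 were in the table and 34 were tested. Of the 34, 26 were higher and 8 lower with a median log2 fold change of 0.67, beside 50.8% higher and a median of 0.02 over all tested genes. At an unadjusted p under 0.05, 14 were higher and none lower, against 8.04% and 9.72% of all tested genes. In edgeR 2 of the 34 were called, both higher, against 0.567% of all, and in DESeq2 10 were, against 4.48%. Of the 2 called in edgeR, *Mlxipl* passed the expression filter only through the NJT-2 group. These lists also hold genes of lipid and pyruvate metabolism, so their count is not one of branched-chain catabolism alone. The lists were chosen with earlier results of these data known, so the counts are a description and no test. Of the 10 transport and transamination genes, 2 were tested. *Slc7a8*, a neutral amino acid exchanger, had an FPKM of 0.38, 1.76, and 2.59 with vehicle and of 9.82, 3.41, and 7.98 with NJT-2, without overlap (log2 fold change 2.12, adjusted p = 0.171 in edgeR). *Slc3a2*, the heavy chain shared by such exchangers, was highest in NJT-2 replicate 2 at 153.02, against 71.01 and 68.84 in NJT-2 replicates 1 and 3 and 41.5 to 57.24 with vehicle (log2 fold change 0.90, adjusted p = 0.311 in edgeR).

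The keto acid dehydrogenase complexes that share *Dld* can be set beside *Dbt*. Of the 10 listed genes 5 were tested. All 5 were higher in NJT-2 replicates 1 and 3 than in any vehicle library, as were 29.2% of all tested genes. At an unadjusted p under 0.05, 3 were higher, against 8.04% of all tested genes. *Dlat*, the pyruvate dehydrogenase counterpart of *Dbt*, had an FPKM of 2.61, 9.65, and 12.28 with vehicle and of 61.81, 15.9, and 52.78 with NJT-2 (log2 fold change 2.34, adjusted p = 0.137 in edgeR). *Dlst*, the counterpart in the oxoglutarate dehydrogenase of the citrate cycle, had 9.27, 12.39, and 11.79 with vehicle and 25.89, 12.6, and 24.14 with NJT-2 (log2 fold change 0.71, adjusted p = 0.304 in edgeR). By FPKM NJT-2 replicate 2 stayed above the vehicle libraries in both genes, by a narrow margin in *Dlst*, whereas in *Dbt* it did not. *Pdhb* had the largest log2 fold change of the 5 tested, 3.00 (SE 0.50, adjusted p = 0.0508 in edgeR), *Pdhx* had 1.58 (adjusted p = 0.139), and *Ogdh* 0.63 (adjusted p = 0.444).

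Cofactor genes of the propionyl-CoA steps lay on both sides of 0. Besides *Mmut* 5 were tested, with log2 fold changes from -1.26 for *Cd320*, the cobalamin uptake receptor, to 0.42 for *Mtr*, the cobalamin-dependent methionine synthase, and none passed an unadjusted p under 0.05. *Tcn2*, the cobalamin carrier in blood, had -0.42, *Abcd4*, a lysosomal cobalamin transporter, -0.69, and *Btd*, which recycles biotin, 0.26, with adjusted p from 0.29 to 0.615 over the 5 in edgeR. Of the biotin carboxylases related to the enzyme of *Mccc2*, *Pcx* (pyruvate carboxylase) had 26, 31.09, and 35.13 FPKM with vehicle and 219, 68.5, and 190.08 with NJT-2 (log2 fold change 2.17, adjusted p = 0.1 in edgeR). *Acaca* (acetyl-CoA carboxylase) had a log2 fold change of 1.37 (adjusted p = 0.221 in edgeR). Their FPKM in NJT-2 replicates 1 and 3 was above every vehicle library, as was that of *Mccc2*.

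Among relatives of *Auh*, *Echdc1* was called. This enzyme, which removes ethylmalonyl-CoA, had an FPKM of 3.52, 3.61, and 4.76 with vehicle and of 48.28, 17.44, and 43.3 with NJT-2 (log2 fold change 2.99, SE 0.44, adjusted p = 0.0408 in edgeR). *Eci1* and *Eci2*, isomerases of unsaturated fatty acid oxidation, had log2 fold changes of 1.59 and 0.85 (adjusted p = 0.189 and 0.264 in edgeR). Among relatives of *Aldh6a1*, 5 were tested. Of them 1, *Aldh1l2*, was higher at an unadjusted p under 0.05, against 8.04% of all tested genes. This mitochondrial folate enzyme had an FPKM of 0.32, 1.06, and 3.2 with vehicle and of 6.71, 50.63, and 5.8 with NJT-2 (log2 fold change 3.83, adjusted p = 0.173 in edgeR). Its high value was in NJT-2 replicate 2, the library in which *Aldh6a1* was lowest of the NJT-2 group.

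Of 7 listed regulators 4 were tested. *Mlxipl*, which encodes the carbohydrate response factor ChREBP, was called higher, with an FPKM of 0.14, 0.16, and 0.24 with vehicle and of 6.51, 1.82, and 5.29 with NJT-2 (log2 fold change 4.45, SE 0.57, adjusted p = 0.027 in edgeR). With a vehicle mean of 0.18 and an NJT-2 mean of 4.54, it passed the filter of 0.5 only through the NJT-2 group. *Pparg*, the gene of PPARγ itself, had an FPKM of 1.06, 5.68, and 6.41 with vehicle and of 37.26, 13.01, and 33.71 with NJT-2 (log2 fold change 2.63, adjusted p = 0.119 in edgeR). As for *Aldh6a1*, vehicle replicate 1 was the lowest library, NJT-2 replicate 2 was the lowest of its group, and the groups did not overlap. *Esrra* and *Tfam*, regulators of mitochondrial genes, had log2 fold changes of 0.37 and 0.11 (adjusted p = 0.533 and 0.856 in edgeR). *Ppara*, under the expression filter, was at 0, 0.03, and 0.08 FPKM with vehicle and at 1.52, 0.31, and 0.95 with NJT-2. The calls of *Echdc1* and *Mlxipl* held in 1 of 6 fits that left out a single library, the one without NJT-2 replicate 2. In the other 5 fits the adjusted p in edgeR was 0.0851 to 0.3 for *Echdc1* and 0.0751 to 0.243 for *Mlxipl*, with log2 fold changes of at least 2.74 and 4.11.

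**Figure D4:**
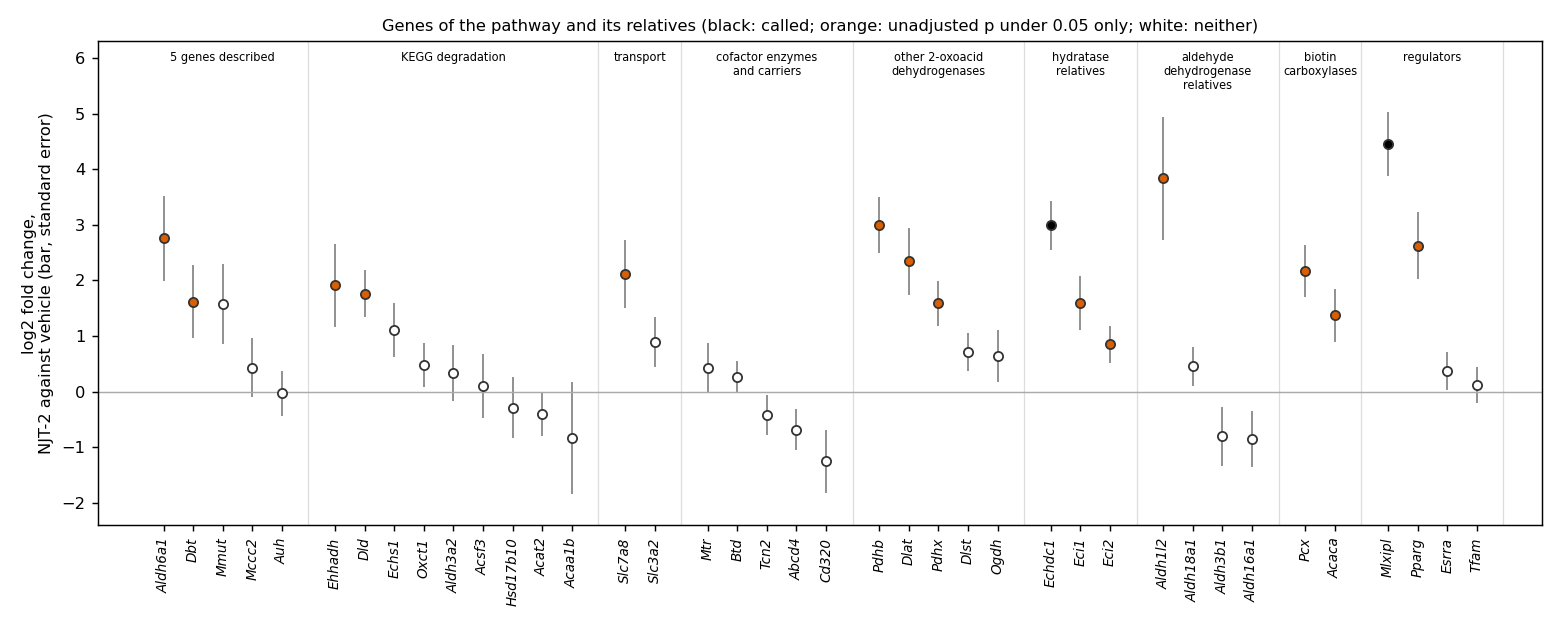
Log2 fold change, NJT-2 against vehicle (vertical axis, bars are standard errors), of the 5 genes and of 34 genes listed around the pathway, grouped by role. Black points are called, orange points pass an unadjusted p under 0.05 only, and the values run from -1.26 for *Cd320* to 4.45 for *Mlxipl*.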

How the data were processed

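Poly(A) RNA of 3 vehicle and 3 NJT-2 cultures was sequenced as dUTP libraries (paired ends). The submitters' processing notes name cutadapt 1.9, HISAT2 2.2.1, StringTie 2.1.6, DESeq2, edgeR, and GRCm38, and the counting tool, annotation release, and strand setting are not given in the sources used here. The authors deposited raw read counts per gene without normalization. The deposited FPKM values are scaled by the authors to gene length and library total. The length behind the FPKM was within 5% of the exon union of GENCODE M21 for 99.1% of tested genes. The table analysed here has 4864 complete lines, in order of Ensembl number, and 1 line that ends before its values. Genes outside it were not analysed here. These lines hold 27.7% to 32.5% of the library totals implied by the FPKM values.

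Counts were tested with edgeR 4.0.16 in R 4.3.3 (quasi-likelihood test, TMM, mean FPKM of at least 0.5, no covariates) on all tested genes, with Benjamini-Hochberg adjustment over them. The limits for a call follow the study's methods, which used DESeq2. The standard error is the log2 fold change divided by the square root of F. Correlations and distances used log2 CPM with a prior count of 2. The method was tested on simulated counts with the fitted spread between replicates, drawn without outlying libraries or length trends. How it performs with these was not tested. Alternatives were DESeq2 1.42.0, limma 3.58.1, voom, other factors and filters, a gene length offset, a replicate block, and leaving out libraries. Named were the 5 genes, the genes of KEGG degradation and of the lists around it, and for each of the 5 the 2 genes with the highest Pearson r. The genes and lists were chosen with earlier results of these data known. No pair of libraries agreed within sampling noise (chi-square of at least 56.7 per gene). Spread between replicates, not depth, limits precision (biological coefficient of variation 0.504, common to all genes). Counting error alone is small at these depths. RefSeq promoters were matched by symbol for 3 of the 5 genes, not for *Dbt* and *Mmut*, over all listed motifs on both strands.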

Additional observations from a re-analysis of the deposited data

How the results depend on the processing

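The sign of 4 of the 5 log2 fold changes held in all 19 alternatives, and *Mccc2* and *Auh* were called in none of them. *Aldh6a1* was called by DESeq2 (log2 fold change 2.77, the only one of the 5), by voom with quality weights (3.02), and in the fit of vehicle replicates 2 and 3 against NJT-2 replicates 1 and 3, which was chosen after seeing the data (2.71). *Dbt* and *Mmut* were called by voom (2.40 and 1.86) and in that fit of 2 against 2 (2.03 and 1.59), so that each of these had 3 of the 5 called. voom gave its lowest weights, 0.141 and 0.13, to the libraries that this fit drops. *Auh* changed sign with limma on log2(FPKM + 1) (0.056) and log2(FPKM + 0.1) (0.049), voom (0.11), whole-library totals (0.13), and 2 against 2 (0.26). With the totals and both limma fits the median of all genes also rose, to 0.16, 0.14, and 0.17. The cause of the sign changes was not tested in any of these fits. At an unadjusted p under 0.05, 1 of the 5 was higher in both limma fits and 4 in voom and in 2 against 2. The share of all tested genes higher at that limit was computed for the main fit (8.04%) and for 2 against 2 (15.5%) only. Counts at that limit in the other fits, of the 5 or of the listed genes, have no such share beside them and are not read as a result. Genes called higher and lower over the whole table numbered 21 and 5 in the main fit, 163 and 126 in DESeq2, 392 and 335 in voom, and 255 and 227 in 2 against 2. With the length offset they were 32 and 8. Lower calls were 10 in both limma fits, 9 with upper-quartile factors, no filter, or at least 10 counts in every library, and 8 when the mean FPKM had to reach 1. Of the 34 listed genes, 10 were called higher in DESeq2, 1 in limma on log2(FPKM + 1), 15 in voom, and 16 in 2 against 2. At an unadjusted p under 0.05, 22 of them were higher in voom and 21 in 2 against 2, and 1 was lower with DESeq2, upper-quartile factors, the length offset, or no filter, and 2 in voom.

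With 1 library left out at a time, log2 fold changes ran from 2.24 to 3.31 (*Aldh6a1*), 1.19 to 2.09 (*Dbt*), 1.10 to 2.06 (*Mmut*), 0.15 to 0.83 (*Mccc2*), and -0.24 to 0.28 (*Auh*), and none of the 5 was called. Between 1 and 4 of the 5 were higher at an unadjusted p under 0.05, and 4 were so without NJT-2 replicate 2, again with no share of all tested genes computed. Calls over the table ran from 0 to 56 higher and from 0 to 19 lower, and the most came without NJT-2 replicate 2. Of the listed genes 0 to 5 were called higher, and 10 to 18 were higher and 0 to 1 lower at an unadjusted p under 0.05. The replicate numbers are no known pairing. Deviations of same-numbered libraries from their group means correlated at 0.179, 0.032, and -0.207, and 3 of 6 libraries correlated best with their own number. With the replicate number as a block, 43 genes were called higher and 14 lower, none of the 5 among them. *Mccc2* had an adjusted p of 0.00628 in voom (log2 fold change 0.74) and of 0.0454 in 2 against 2, both under the fold limit, and from 0.17 to 0.924 in the other alternatives. The spread between replicates, more than depth, limits what these libraries resolve.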
